A study of Homo sapiens with 4 samples.

Results

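The lysosome and autophagy genes are 34 genes chosen by name for their role in the lysosome or in autophagy. They were chosen with earlier results of these data known. All 34 were found among the 23459 genes listed in each library. All 34 also had a CPM, which is a count scaled to library size, above 1 in at least 2 libraries, so no member was lost among the 12559 genes that passed this filter and were tested. The libraries came from hTERT RPE-1, a human retinal pigment epithelium line immortalized with telomerase and labelled wild type. Every culture had spent 48 h in medium with 0.1% fetal bovine serum, which arrests the cells, and was then exposed to 200 μM merbarone, a catalytic inhibitor of type II DNA topoisomerases. The groups were 4 h of exposure (240 min, 2 replicates) and 8 h of exposure (480 min, 2 replicates). Untreated cells were not analysed here, so the comparison was 8 h against 4 h, and longer exposure cannot be told apart from longer time in low serum.

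Lysosomes degrade material with acid hydrolases, which work at the low pH that the vacuolar proton pump (V-ATPase) sets across a membrane rich in LAMP proteins. Autophagy encloses cytoplasm in a double membrane that carries lipid-linked LC3 and GABARAP proteins and then fuses with lysosomes. TFEB and TFE3, factors of the MiT family, bind E-box sequences in many lysosomal and autophagy genes. When nutrients are plentiful, mTORC1 on the lysosomal surface keeps these factors in the cytoplasm. Retinal pigment epithelium is known for its heavy lysosomal load, since it takes up and digests shed photoreceptor tips.

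The promoter table of RefSeq (GRCh38.p14) had a window for 24 of the 34 members, each running from 250 bases before a transcript start to 50 bases after it. Both strands were searched for the E-box core CACGTG, which reads the same on both, and for the 7-letter forms TCACGTG and CACGTGA, which contain that core and occur in the element bound by MiT factors. The core was present in the windows of 6 members, which is 25% of the 24, and all 6 had a longer form. It was present for 12.6% of the tested genes with a window and in 7.26% of all windows, and the longer forms for 7.34% and 3.71%. The windows of these 6 members are shown because they carry the letters that TFEB and TFE3 recognise, from 10 bases before the first core to 10 bases after the last, stopping at the start, with each core in capitals.
LAMP1: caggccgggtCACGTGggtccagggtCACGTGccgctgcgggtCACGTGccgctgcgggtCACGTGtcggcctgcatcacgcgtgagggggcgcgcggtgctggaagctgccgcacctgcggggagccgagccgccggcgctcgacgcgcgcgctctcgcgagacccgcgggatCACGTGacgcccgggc
MCOLN1: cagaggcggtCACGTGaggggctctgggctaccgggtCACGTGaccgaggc
CTSA: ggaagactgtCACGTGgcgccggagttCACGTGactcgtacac
NEU1: gctgcgtgatCACGTGggaggagatg
CTSD: cggccgcgccCACGTGaccggtccgg
ATP6V0D1: cccttatggtCACGTGaggcgcttgc
LAMP1 (chr13:113297037-113297226, plus strand) held 5 cores in the printed stretch, which runs from -202 to -13 from its start, and a further one at -1 that crosses the start and is not shown. MCOLN1 (chr19:7522573-7522623, plus strand) and CTSA (chr20:45891283-45891325, plus strand) held 2 each. NEU1 (chr6:31862932-31862957, minus strand), CTSD (chr11:1763959-1763984, minus strand) and ATP6V0D1 (chr16:67481201-67481226, minus strand) held 1 each. These matches describe letters in a window and say nothing of binding in these cells.

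Depth ranged from 8064450 to 10324697 counts per library, and a member had between 45 and 85865 counts in a library. The study called its replicates biological. The p-values below compare the difference between times with the spread between these libraries, a spread estimated partly from all genes tested. Replicates differed by more than sampling noise, with a chi-square per degree of freedom of 2.67 at 4 h and 3.84 at 8 h. Of 10 markers of retinal pigment epithelium, 6 were below the filter. Among them, RPE65 had 2 to 7 counts and TYR had 0 counts in every library. MITF and OTX2, which specify this tissue, were present, with 669 to 882 and 132 to 193 counts. PMEL and SERPINF1 also passed the filter, with only 7 to 12 and 22 to 30 counts. Of 6 macrophage and leukocyte markers, 5 were below the filter, and the list summed to 4.12 to 5.62 CPM in every library. Fibroblast and mesenchymal markers summed to 23420 to 23630 CPM at 4 h and 27297 to 28257 CPM at 8 h. VIM and FN1 were higher, COL1A1 was lower and the other 3 tested did not pass. COL1A2, with 0 to 2 counts, was below the filter. The epithelial list summed to 769 to 828 CPM at 4 h and 648 to 692 CPM at 8 h. KRT7 was higher, KRT18 was lower and KRT8 did not pass. CDH1, with 0 to 1 counts, and EPCAM, with 0 counts, were below the filter. These sums are scaled to library size alone. The part of these markers in the results was not tested.

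Most of the lysosome and autophagy genes were modestly higher at 8 h. In bulk RNA, more cells expressing a gene and more RNA per cell cannot be told apart. With edgeR's quasi-likelihood test and a Benjamini-Hochberg adjusted p below 0.05 over all 12559 genes, 21 members were higher at 8 h, 1 was lower and 12 did not pass. Among all genes tested, 19.9% were higher and 18.8% were lower. The members were chosen with earlier results known, so these shares are set side by side as a description. The rises were small, from 1.14-fold for LAMP1 to 1.59-fold for MAP1LC3B, and no member passed both the adjusted p and an absolute log2 fold change (log2FC) above 1, which 1.45% of all genes did upwards and 3.88% downwards. That count was also 0 at an unadjusted p below 0.05 and with limma-voom and DESeq2. Without 4 h replicate 1, which leaves fewer libraries, fewer members were called higher, all of them among the 21, and the lower call was lost. The share of all genes called in that fit was not computed. The median log2FC of the members was 0.25, beside 0.00 over all genes tested. In 24 members both 8 h libraries lay above both 4 h libraries, in 2 both lay below and in 8 the times overlapped, whereas 34.8% of all genes lay wholly above and 34.9% wholly below.

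**Figure D1:**
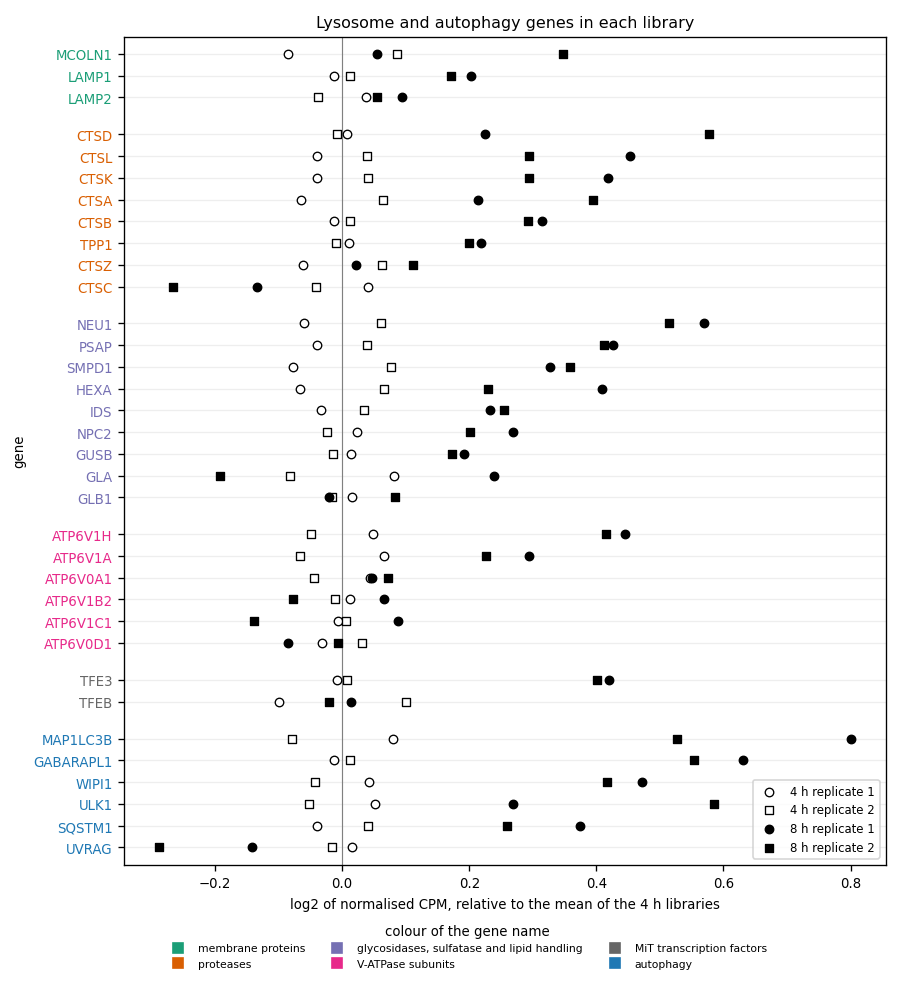
Normalised CPM of the 34 genes in each of the 4 libraries, as log2 relative to the mean of the 4 h libraries (x axis), with open symbols for 4 h, filled symbols for 8 h, circles for replicate 1 and squares for replicate 2. Filled symbols lie to the right of both open symbols for 24 genes and to the left for CTSC and UVRAG.

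The members are abundant genes, and abundance moved with the fold changes of all genes. Of the 34 members, 24 were in the top quintile of genes by mean CPM. In that quintile 39.4% of all genes were higher at 8 h and their median log2FC was 0.13, while 18 of the 24 members were higher and their median was 0.30. In the next quintiles downwards the shares of all genes that were higher were 27.2%, 17.5%, 9.95% and 5.49%, and 2 of 5, 1 of 4, 0 of 0 and 0 of 1 members were. The shares of all genes that were lower ran from the top quintile downwards as 14.8%, 19.1%, 22.0%, 23.4% and 14.8%, and CTSC, in the top quintile, was the only member called lower. When the trend with abundance was removed from each library, 12 members were higher and CTSC was lower (18.7% and 18.1% of all genes), with a median of 0.15. With library size alone in place of the trimmed mean of M-values (TMM), which moved the median of all genes to -0.11, 14 were higher and CTSC was lower (13.5% and 26.2% of all genes), and the median of the members was 0.15.

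**Figure D2:**
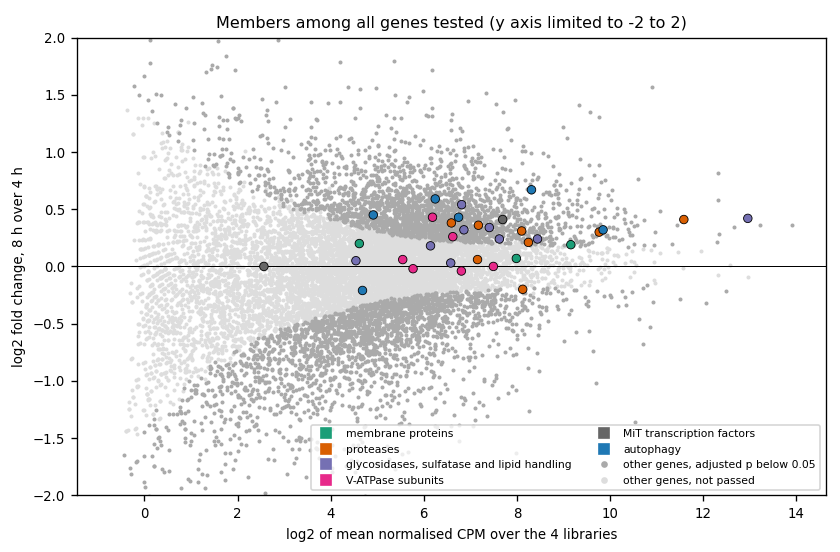
Log2 fold change of 8 h over 4 h (y axis) against the log2 of mean normalised CPM (x axis) for all genes tested, with the 34 members coloured by role. Most members sit on the right, where the cloud of grey points itself leans upwards, and 24 are in the top quintile by mean CPM.

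Per kb of transcript, which allows levels to be compared between genes, members spanned a wide range. PSAP had the highest level, with a mean of 2481 normalised CPM per kb at 4 h and 3317 at 8 h, followed by CTSD at 1284 and 1708. SQSTM1 came next at 289 and 361, then NPC2 at 220 and 260 and CTSB at 209 and 258. NPC2 and CTSB overlapped between libraries at 8 h but not at 4 h. Of the 33 pairs of neighbours in this order, the libraries of 6 pairs overlapped at 4 h and those of 12 at 8 h. The lowest levels were those of ATP6V1C1 at 9.75 and 9.61, UVRAG at 5.40 and 4.64 and TFEB at 2.54 and 2.53. These levels use the length of the canonical transcript and are approximate, because Bowtie, which mapped the reads, does not split reads across splice junctions.

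**Figure D3:**
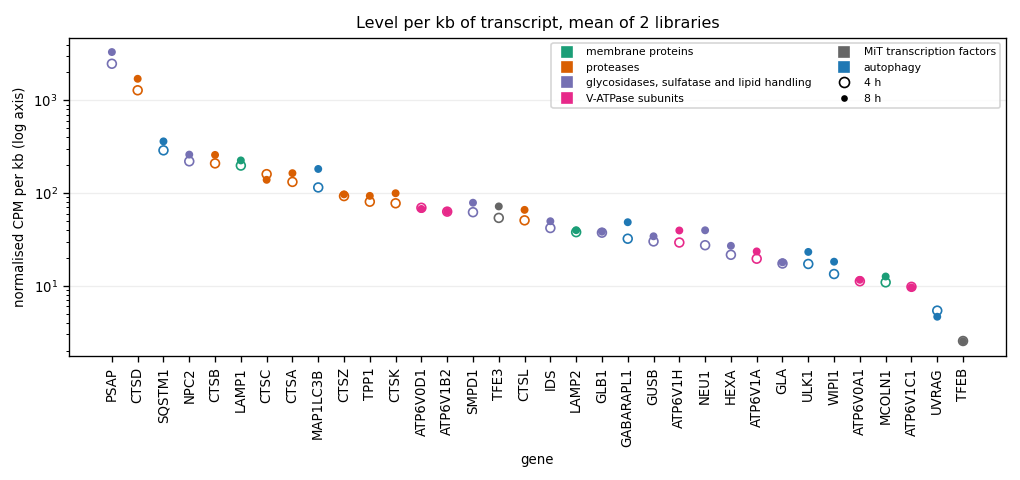
Mean normalised CPM per kb of canonical transcript (y axis, log scale) for each gene, ordered by the level at 4 h, with open circles for 4 h and filled points for 8 h. PSAP and CTSD stand above 1000 per kb and TFEB is lowest.

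Of the 3 membrane proteins, LAMP1 was higher and LAMP2 and MCOLN1 did not pass. LAMP1, an abundant glycoprotein lining the lysosomal membrane (chromosome 13, 113951554 to 113977987, plus strand, hg19), had 530 and 539 normalised CPM in the 4 h libraries, against 615 and 602 after 8 h. Both 8 h values were higher, and the log2FC was 0.19 ± 0.07 (standard error, SE, of the edgeR fit, adjusted p = 0.0382). This call was lost with DESeq2, with library size alone, with the abundance trend removed (log2FC 0.02) and without either 4 h replicate or without 8 h replicate 1. LAMP2, its partner that also serves chaperone-mediated autophagy, had 254 and 241 in the 4 h libraries, against 264 and 257 after 8 h, and its log2FC of 0.07 did not pass (95% interval -0.08 to 0.23). MCOLN1, a lysosomal cation channel that releases calcium, had 21.4 and 24.1 in the 4 h libraries, against 23.6 and 28.9 after 8 h. The times overlapped for MCOLN1, and its log2FC of 0.20 had an interval of -0.10 to 0.49.

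Of the 8 proteases, 6 rose (75.0%, beside 19.9% of all genes), 1 fell and 1 did not pass, with a median log2FC of 0.30. CTSD, the aspartic protease of lysosomes (chromosome 11, 1773982 to 1785803, minus strand), had 2654 and 2625 normalised CPM in the 4 h libraries, against 3084 and 3936 after 8 h. Both 8 h libraries were higher, although they differed from each other by more than the 4 h libraries did, and the log2FC was 0.41 ± 0.08 (SE, edgeR adjusted p = 0.000697). With the abundance trend removed, the log2FC of CTSD was 0.19 and no longer passed (edgeR adjusted p = 0.0606). The cysteine proteases CTSK, known as a collagenase of bone, and CTSL, a general endopeptidase, rose by log2FC of 0.36 and 0.38. Both calls held in every test, scaling and filter tried and were lost without 4 h replicate 1. CTSB, another cysteine protease, rose from 773 and 787 to 970 and 955, with a log2FC of 0.30 that was 0.12 and did not pass with the trend removed (edgeR adjusted p = 0.168). CTSA, a carboxypeptidase that also shields NEU1 and GLB1 in a shared complex, and TPP1, a tripeptidyl peptidase, rose by 0.31 and 0.21. Both calls were lost with library size alone, with the trend removed and without 4 h replicate 1, and that of TPP1 also with DESeq2 and without 4 h replicate 2.

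CTSC was the member that fell. It encodes a dipeptidyl peptidase that activates the serine proteases of immune granules (chromosome 11, 87998237 to 88092852, minus strand). It had 307 and 290 normalised CPM in the 4 h libraries, against 272 and 248 after 8 h, so both 8 h libraries lay below both 4 h libraries. Its log2FC was -0.20 ± 0.08 (SE, edgeR adjusted p = 0.0481). The log2FC was -0.34 with the abundance trend removed and -0.30 with library size alone, but the call was lost with DESeq2, with RLE size factors, without the CPM filter, without either 4 h replicate and without 8 h replicate 2. CTSZ, a carboxypeptidase, had a log2FC of 0.06 and did not pass. It overlaps NELFCD on the opposite strand, and whether the counting used the strand is not given in the sources used here. The same holds for CTSA, GLA, HEXA, MAP1LC3B, NPC2, SQSTM1 and WIPI1, each of which overlaps a listed gene on the opposite strand, while GLB1 and MCOLN1 overlap one on their own strand.

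The glycosidases, the sulfatase and the lipid-handling proteins numbered 9. Of these, 6 rose (66.7%, beside 19.9% of all genes) and 3 did not pass, with a median log2FC of 0.24. NEU1, the lysosomal sialidase (chromosome 6, 31825436 to 31830682, minus strand), changed most among them, from 87.9 and 95.6 normalised CPM at 4 h to 136 and 131 at 8 h. Both 8 h libraries stood well above both 4 h libraries, and the log2FC was 0.54 ± 0.08 (SE, edgeR adjusted p = 5.92e-05). PSAP, the precursor of the saposins that present lipids to hydrolases (chromosome 10, 73576055 to 73611008, minus strand), had the lowest adjusted p of the group. It went from 6630 and 7006 at 4 h to 9160 and 9070 at 8 h, and the log2FC was 0.42 ± 0.06 (SE, edgeR adjusted p = 2.12e-05). With the abundance trend removed, the log2FC of PSAP was 0.18 and still passed (edgeR adjusted p = 0.024).

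Among the other members of the group, SMPD1, the acid sphingomyelinase, rose from 142 and 158 to 188 and 192, and its call was lost without 4 h replicate 1. HEXA, the alpha subunit of beta-hexosaminidase, rose from 98.6 and 108 to 137 and 121, and its call was lost with library size alone and without 4 h replicate 1 or 8 h replicate 1. IDS, an iduronate sulfatase, and NPC2, which carries cholesterol out of the lysosome, each rose with a log2FC of 0.24, and both calls were lost with library size alone, with the trend removed and without either 4 h replicate, that of NPC2 also without 8 h replicate 1. GUSB, the beta-glucuronidase, had both 8 h libraries higher, but its log2FC of 0.18 did not pass (interval -0.01 to 0.37). Counts of GUSB are uncertain, since the annotation names 19 pseudogenes of it and only reads mapping to a single place in the genome were kept. Named pseudogenes also exist for LAMP1, CTSL, IDS, SQSTM1 and MAP1LC3B. GLA and GLB1, an alpha- and a beta-galactosidase, overlapped between the times, with log2FC of 0.05 and 0.03. The interval for GLB1 was -0.15 to 0.21, so a change as large as that of NEU1 lay outside it.

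Of the 6 V-ATPase subunits, 2 were higher (33.3%, beside 19.9% of all genes) and 4 did not pass. All 6 lay in the top quintile by mean CPM or the next, where 39.4% and 27.2% of all genes were higher. ATP6V1H, a regulatory subunit of the cytosolic V1 sector (chromosome 8, 54628103 to 54756118, minus strand), had 64.2 and 60.0 normalised CPM in the 4 h libraries, against 84.5 and 82.8 after 8 h. Both 8 h libraries were higher, and the log2FC was 0.43 ± 0.09 (SE, edgeR adjusted p = 0.000991). ATP6V1A, the subunit that hydrolyses ATP, rose from 93.9 and 85.7 to 110 and 105, a log2FC of 0.26 whose call was lost with DESeq2, with library size alone, with the trend removed and without either 4 h replicate or 8 h replicate 1. The other 4 subunits did not pass, with log2FC between -0.04 and 0.06 and 95% intervals that together ran from -0.24 to 0.27. They were ATP6V1B2 and ATP6V1C1 of the V1 sector and ATP6V0A1 and ATP6V0D1 of the membrane-bound V0 sector. ATP6V1B2, which pairs with ATP6V1A in the catalytic ring, had 182 and 179 in the 4 h libraries, against 189 and 171 after 8 h. Whether ATP6V1H differed from these subunits in its change was not tested.

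The MiT factors differed in level and in what was detectable. TFE3 (chromosome X, 48886237 to 48900936, minus strand) had 177 and 179 normalised CPM in the 4 h libraries, against 238 and 235 after 8 h. Replicates were close and the times far apart, and the log2FC was 0.41 ± 0.08 (SE, edgeR adjusted p = 0.000284). TFEB (chromosome 6, 41651716 to 41703997, minus strand) had 5.52 and 6.34 in the 4 h libraries, against 5.97 and 5.83 after 8 h. The times overlapped for TFEB, and the log2FC was 0.00 ± 0.23 (SE, edgeR adjusted p = 0.989). Its interval of -0.49 to 0.48 holds a change of the size seen for TFE3, which was not detectable at the depth of TFEB. Per kb, TFE3 stood at 20.0 to 22.7 times TFEB in the 4 h libraries and at 28.2 to 28.6 times in the 8 h libraries. These are transcript levels, and the activity of both factors is set largely by their location in the cell, which was not measured.

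The autophagy genes held the largest rises. Of 6 members, 5 rose (83.3%, beside 19.9% of all genes) and 1 did not pass, with a median log2FC of 0.44. MAP1LC3B, which encodes the LC3 protein that is attached to autophagosome lipids (chromosome 16, 87417559 to 87438385, plus strand), had 259 and 232 normalised CPM in the 4 h libraries, against 427 and 353 after 8 h. Both 8 h libraries were higher, and the log2FC was 0.67 ± 0.09 (SE, edgeR adjusted p = 9.64e-06). This gene shares nearly identical sequence with MAP1LC3B2 and overlaps FBXO31 on the opposite strand, so part of its reads may be lost or shared. MAP1LC3B2 itself was listed at 33.2 and 34.3 at 4 h and 53.8 and 50.0 at 8 h.

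GABARAPL1, of the related GABARAP branch (chromosome 12, 10365057 to 10375727, plus strand), rose from 60.0 and 61.1 to 93.7 and 88.9. Its replicates were close at both times, and the log2FC was 0.59 ± 0.09 (SE, edgeR adjusted p = 4.07e-05). ULK1, the kinase that starts autophagy, rose from 94.7 and 88.1 to 110 and 137, with a wider gap between the 8 h replicates. WIPI1, which binds the phosphoinositide of the forming membrane, rose from 26.3 and 24.8 to 35.4 and 34.1, and its call was lost without 4 h replicate 2. SQSTM1, the receptor that links ubiquitinated cargo to LC3, rose from 799 and 845 to 1065 and 984, a log2FC of 0.32 that was 0.14 and did not pass with the trend removed (edgeR adjusted p = 0.144), nor without 4 h replicate 1. UVRAG, a subunit of a lipid kinase complex that acts in autophagosome and endosome maturation, had 27.9 and 27.3 in the 4 h libraries, against 25.0 and 22.6 after 8 h. Both 8 h libraries of UVRAG were lower, but its log2FC of -0.21 did not pass (interval -0.48 to 0.06).

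**Figure D4:**
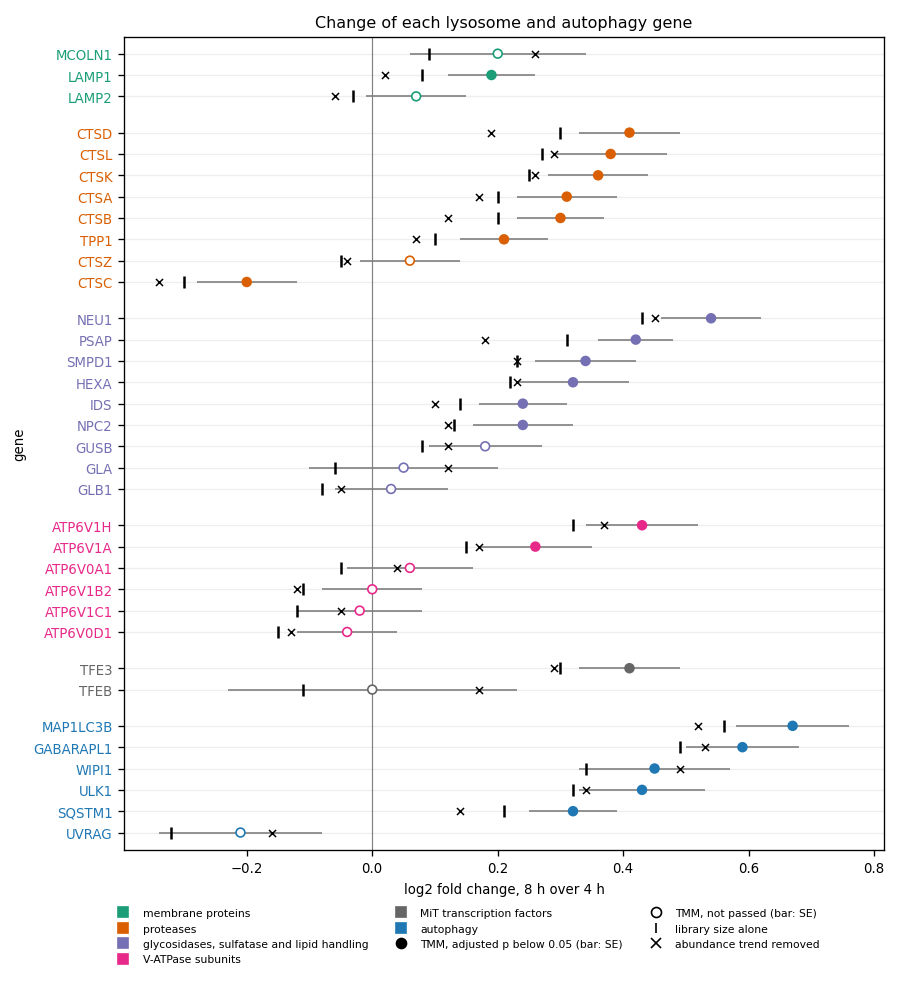
Log2 fold change of 8 h over 4 h (x axis) for the 34 genes, grouped by role, as circles with standard error bars for TMM (filled where the adjusted p was below 0.05), ticks for library size alone and crosses with the abundance trend removed. The largest rises are MAP1LC3B at 0.67 and GABARAPL1 at 0.59, and ticks and crosses mostly lie left of the circles.

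Members with and without an E-box core in the window are set side by side here, with no test. Of the 6 members with a core in the window, CTSA, CTSD, LAMP1 and NEU1 rose and MCOLN1 and ATP6V0D1 did not pass, with a median log2FC of 0.25. Of the 18 with a window but no core, 11 rose and 1 fell, with a median of 0.24. The log2FC ran from -0.04 to 0.54 in the members with a core and from -0.20 to 0.67 in those with a window but no core. The windows cover only bases near the start, so elements elsewhere were not searched.

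Other genes of the pathway were taken from 8 lists of 163 genes in all, of which 153 passed the filter. Of these, 53 were higher at 8 h (34.6%), 12 were lower (7.84%) and 88 did not pass, with a median log2FC of 0.17. Among all genes tested these shares were 19.9% and 18.8% and the median was 0.00, and 39.4% were higher in the top quintile by mean CPM. The 10 genes below the filter included RRAGD, VAMP8 and the tissue-restricted V-ATPase subunits ATP6V0A4, ATP6V0D2, ATP6V1B1 and ATP6V1C2. With library size alone the count of higher genes was 33, beside 13.5% of all genes. Fewer genes were called higher without either 4 h replicate, and fewer were called lower without either 4 h replicate or 8 h replicate 2. With DESeq2 the count of lower genes was 3. The share of all genes called was not computed for DESeq2 or for the fits with a library left out.

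**Figure D5:**
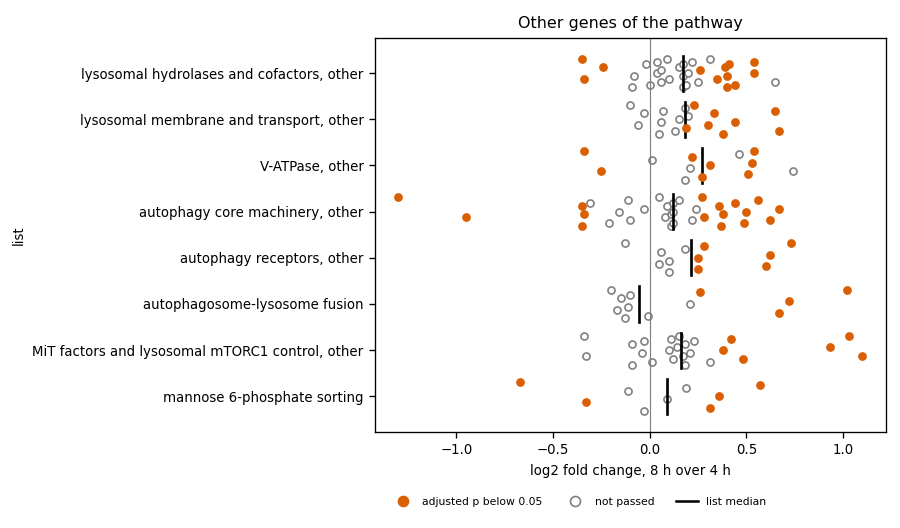
Log2 fold change of 8 h over 4 h (x axis) for the 153 other pathway genes in 8 lists, with filled points for an adjusted p below 0.05 and a black line at each list's median. FNIP1, FNIP2 and PLEKHM1 lie beyond 1, and ATG4C and VMP1 lie farthest to the left.

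Among 32 other hydrolases and their cofactors, 9 were higher (28.1%) and 3 lower (9.38%), beside 19.9% and 18.8% of all genes tested. GAA, which breaks down glycogen in the lysosome, rose from 83.3 and 80.5 to 111 and 128 (log2FC 0.54, edgeR adjusted p = 0.000104), while LIPA, the lysosomal acid lipase, fell from 156 and 146 to 129 and 125 (log2FC -0.24, edgeR adjusted p = 0.0224). Of 18 other membrane and transport proteins, 8 were higher (44.4%) and 0 lower by edgeR. PLD3, a lysosomal nuclease, rose from 174 and 182 to 251 and 306, with a log2FC of 0.65. Of 13 other V-ATPase genes, 6 were higher (46.2%) and 2 lower (15.4%). They were led by ATP6V1F of the V1 sector at a log2FC of 0.54 and ATP6V0A2 of the V0 sector at -0.34. The calls of LIPA and ATP6V0A2 were lost with DESeq2 and without either 4 h replicate or 8 h replicate 2. In the sorting of hydrolases by mannose phosphate tags, 3 of 9 genes were higher (33.3%) and 2 lower (22.2%). GNPTG, a subunit of the enzyme that adds the tag, rose by 0.57, and GGA2, an adaptor for the tag's receptors, fell from 59.2 and 61.6 to 38.9 and 36.7 (log2FC -0.67, edgeR adjusted p = 4.51e-05).

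Of 33 core autophagy genes, 11 were higher (33.3%) and 5 lower (15.2%), beside 19.9% and 18.8% of all genes. DESeq2 called 8 of them higher and 2 lower. VMP1, a membrane protein needed to form autophagosomes, fell from 242 and 250 normalised CPM to 127 and 129, a log2FC of -0.95 ± 0.08 (SE, edgeR adjusted p = 2.58e-08). MAP1LC3B2 had the lowest adjusted p among those that rose, with a log2FC of 0.62. Its reads, like those of MAP1LC3B, may be lost or shared as described above. ATG4C, a protease that trims LC3-family proteins, was the gene of these lists that fell past the fold threshold, from 7.68 and 5.96 to 2.13 and 3.50 (log2FC -1.30, edgeR adjusted p = 0.00143), and was named after its values were seen. Of 12 cargo receptors, 6 were higher (50.0%) and 0 lower. They were led by RETREG1, a receptor for the endoplasmic reticulum, which rose from 27.1 and 27.0 to 43.4 and 46.7 (log2FC 0.73).

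Fusion of autophagosomes with lysosomes and nutrient control at the lysosome held the genes that rose past the fold threshold. PLEKHM1, an adaptor for fusion, rose from 26.5 and 28.7 to 56.9 and 54.8 normalised CPM, a log2FC of 1.02 ± 0.11 (SE, edgeR adjusted p = 7.48e-07). It was among 4 of 12 fusion genes that were higher (33.3%), with 0 lower, beside 19.9% and 18.8% of all genes. The list median was -0.05. FNIP1, a partner of folliculin in the complex that lets mTORC1 retain MiT factors in the cytoplasm, rose from 30.3 and 27.5 to 61.7 and 62.2 (log2FC 1.10 ± 0.11 SE, edgeR adjusted p = 2.16e-07). It belonged to a list of 24 tested MiT and mTORC1 genes. Of these, 6 were higher (25.0%, beside 19.9% of all genes) and 0 lower, with a median of 0.16. In this list MITF did not pass (log2FC 0.18). In the 4 lists with 0 lower genes, 0 were lower also at an unadjusted p below 0.05, with edgeR, limma-voom or DESeq2.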

How the data were processed

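RNA was extracted with an RNeasy kit, and TruSeq Stranded mRNA libraries were read as single ends. The authors mapped the reads with Bowtie 1.2.0 to hg19, keeping only reads that mapped to a single place. The values they deposited are raw counts, a file per library. The counting tool, its annotation and its strand setting are not given in the sources used here. Counts were used as deposited. Tested genes exceeded a CPM of 1 in at least 2 libraries, TMM factors were computed and time was tested with the quasi-likelihood F test of edgeR 4.0.16 in R 4.3.3 (Benjamini-Hochberg adjusted p below 0.05). The study's further threshold was an absolute log2FC above 1. CPM values are TMM-normalised, except in the filter and in the marker sums, which use library size alone. Standard errors are the log2FC divided by the square root of F. In the filter, a CPM of 1 equals 8.06 to 10.3 counts, which limits precision for low genes. Code was tested on simulated data.

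Alternatives were limma-voom (limma 3.58.1), which the study used against untreated cells, DESeq2 1.42.0, library size alone, RLE size factors, removal of a loess trend (span 0.5) of each library on mean log2-CPM, CPM above 2, no filter, a replicate block, and fits without each library in turn. Those for the named genes of other lists were added after the data were seen. Members and lists were chosen with earlier results of these data known. Full values were given for TFEB and TFE3 and for the called member with the lowest adjusted p in each role and direction. They were also given for the member with the largest change in each role, for MCOLN1 with an interval in place of SE and adjusted p. In every other list, the called gene with the lowest adjusted p in each direction was named, in some cases with a log2FC alone. Gene positions are from GENCODE lifted to hg19, promoters from RefSeq. Windows for CTSB, ATP6V1H, CTSK, ATP6V1B2, ATP6V1A, UVRAG, ATP6V1C1, HEXA, LAMP2 and PSAP were not used here.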

Additional observations from a re-analysis of the deposited data

How the results depend on the processing

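Of 408 member values recomputed over 12 alternatives, 341 kept their direction and side of the threshold, 46 kept their direction but were no longer called, and 21 changed sign, none of them called. NEU1, PSAP, ATP6V1H, TFE3, GABARAPL1, MAP1LC3B and ULK1 were higher under all 12. The count of members higher was 21 in the main fit and 12 with the trend removed, beside 19.9% and 18.7% of all genes. With a library left out, this count did not exceed that of the main fit. The count lower was 0 with DESeq2, RLE size factors and no filter, and the call of CTSC was also lost in some fits with a library left out. The median was 0.15 with library size alone and with the trend removed, and 0.23 to 0.28 with a library left out. Of other pathway genes, 33 were higher with library size alone and 33 to 57 with a library left out, and 3 were lower with DESeq2 and 3 to 10 with a library left out. The cause of these differences was not tested.

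Signs changed for TFEB with limma-voom (0.00), for ATP6V1B2 with DESeq2, RLE size factors and no filter (0.00 each), and with library size alone for LAMP2 (-0.03), CTSZ (-0.05), GLA (-0.06), GLB1 (-0.08) and ATP6V0A1 (-0.05). With the trend removed they changed for LAMP2 (-0.06), CTSZ (-0.04), GLB1 (-0.05) and TFEB (0.17). With a library left out, values of both signs were found for CTSZ (-0.01 to 0.12), GLA (-0.19 to 0.24), GLB1 (-0.02 to 0.08), ATP6V1B2 (-0.08 to 0.07), ATP6V1C1 (-0.14 to 0.09) and TFEB (-0.11 to 0.09), of which -0.04 for GLA was without 4 h replicate 2 and 0.01 for TFEB without 8 h replicate 2. Of the named genes outside the members, signs changed for BECN1 with library size alone (-0.02), for PIK3R4 with the trend removed (0.01), and with a library left out for PIK3R4 (-0.21 to 0.15, with 0.08 without 8 h replicate 2) and VPS39 (-0.03 to 0.00), none of them called.

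Deviations of same-numbered libraries were only weakly correlated (0.0484 over 12559 genes). Whether same-numbered cultures were handled together is not given in the sources used here, and this value cannot settle it. With the replicate number as a block, 21 members were higher and 1 lower, and 61 and 12 of the other pathway genes. Depth limits TFEB most among the members.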

Other observations

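Some other genes of the pathway had larger differences than any of the 34 members and were picked after their values were seen. FLCN, which encodes folliculin, had 30.0 and 27.0 normalised CPM in the 4 h libraries, against 51.7 and 57.0 after 8 h, and the log2FC was 0.93 ± 0.11 (SE, edgeR adjusted p = 3.44e-06). FNIP2, which like FNIP1 encodes a folliculin partner, had 42.9 and 51.3 in the 4 h libraries, against 102 and 90.2 after 8 h, and the log2FC was 1.03 ± 0.10 (SE, edgeR adjusted p = 3.37e-07). The 8 h libraries lay above the 4 h libraries for both genes and for FNIP1. All 3 genes of this complex were called higher with every alternative run.

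Of 12 genes for the fusion of autophagosomes with lysosomes, 4 were higher (33.3%, beside 19.9% of all genes) and 8 did not pass. The list had a median log2FC of -0.05. EPG5, a tether that was among the higher ones, had 108 and 114 in the 4 h libraries, against 189 and 165 after 8 h (log2FC 0.67, edgeR adjusted p = 6.57e-06). VPS18, a subunit of the HOPS tethering complex, had 30.2 and 30.4 in the 4 h libraries, against 48.5 and 51.8 after 8 h (log2FC 0.72, edgeR adjusted p = 3.9e-05). The other HOPS subunits did not pass, with a log2FC of 0.21 for VPS11, -0.20 for VPS16, -0.10 for VPS33A, -0.01 for VPS39 and -0.15 for VPS41.

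The lipid kinase complex of early autophagy held calls in both directions. NRBF2 had 22.2 and 18.9 in the 4 h libraries, against 33.1 and 32.4 after 8 h (log2FC 0.67, edgeR adjusted p = 0.000502), and ATG14 was also higher (log2FC 0.50, edgeR adjusted p = 0.00102). The catalytic subunit PIK3C3 was lower, with 33.4 and 30.4 in the 4 h libraries, against 26.6 and 23.5 after 8 h (log2FC -0.35, edgeR adjusted p = 0.0371), a call that was lost with DESeq2, with the abundance trend removed and without either 4 h replicate or 8 h replicate 2. PIK3R4 and BECN1 did not pass, with a log2FC of -0.03 and 0.08.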
